A study of Mus musculus with 15 samples.

Results

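The genes described here are 9 genes of naive T cells and of lymphocyte trafficking, chosen by name: the transcription factors Lef1, Tcf7, Ets1, Satb1, Bcl11b and Klf2, and the receptors S1pr1, Ccr7 and Il7r. Each was taken from the array feature that carries its symbol alone, and 8 of the 9 were found in this way among 19505 genes. Tcf7 was not analysed here. The 9 genes were chosen with earlier results of these arrays known. The shares of all features set beside their counts are therefore a description. Spleen RNA of male C57bl/10 mice was measured on 15 Clariom S arrays, a microarray with 1 summary value per gene. The groups were 6 intact spleens and 3 spleens each on days 1, 3 and 7 after resection of 70% of the liver. The authors name the same strain for all mice, no genetic change was stated, and ages were not given in the sources used here. Per the labels, arrays of the same group are biological replicates. Sham-operated mice were not on these arrays. Levels are the deposited log2 values, so a difference of 1 is a doubling if no further transformation was applied to that scale. Whether one was applied is not given in the sources used here, and it would alter the size of each fold.

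Naive T cells leave the thymus, circulate through blood, spleen and lymph nodes, and survive there on interleukin 7. The chemokines CCL19 and CCL21 draw them through CCR7 into the T cell zones, which in the spleen are the periarteriolar sheaths of the white pulp. They leave again through S1PR1, which senses sphingosine 1-phosphate in blood and lymph. KLF2 and FOXO1 keep the trafficking receptors expressed, and LEF1, TCF-1, BCL11B, SATB1 and ETS1 keep the T lineage program. Activated T cells lower many of these genes. Several are not restricted to T cells: B cells also use Ets1, Klf2, S1pr1 and Ccr7.

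The control spleens were used as 2 sets, by the number in their titles. Days 1 and 7 were compared with intact spleens 1 to 3, and day 3 with intact spleens 4 to 6. The labels state no such batch, and the matching was made with earlier results of these arrays known. It follows genes such as Apobec3, a cytidine deaminase, whose mean log2 level was 4.41 in intact spleens 1 to 3, 4.55 on day 1 and 4.22 on day 7, but 10.05 in intact spleens 4 to 6 and 10.26 on day 3. Days 1 and 7 share their controls, so their differences from intact spleens are not independent of each other. The test was that of limma, with p adjusted over 22206 features and a threshold of 0.05. Correlations between arrays ran from 0.944 to 0.987.

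The clearest result was the distance between days 1 and 7. On the deposited scale, day 7 minus day 1 was -3.76 for Il7r and -2.49 for Lef1. Read as plain log2, these are 13.6-fold and 5.61-fold lower levels. On day 7, 6 of the 8 genes lay below every intact spleen of their set, as did 8.31% of all features. No gene passed the test against the matched set on any day. With all 6 intact spleens as controls, 4 of the 8 genes were called lower on day 7. In that comparison 207 of 22206 features were called in either direction. With intact spleens 4 to 6 as controls it was 6 of the 8 genes, beside 1298 features called in either direction. In whole spleen RNA, fewer cells of a type and less RNA per cell cannot be told apart.

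The sequences just upstream of Il7r and Lef1 are shown because these were the genes that passed a test. They are RefSeq sequence of build GRCm38.p6, the 250 bases that end at the start of the gene, written in the direction of the gene. The Il7r window is chr15:9529877-9530126 on the minus strand. The Lef1 window is chr3:131110047-131110296 on the plus strand, the first of 4 listed for this gene. Capitals mark letters searched on both strands: CCGGAA of ETS factors, CTTTGA of TCF and LEF factors, CCACCC of KLF factors and TGTTTAC of FOXO factors.
Il7r: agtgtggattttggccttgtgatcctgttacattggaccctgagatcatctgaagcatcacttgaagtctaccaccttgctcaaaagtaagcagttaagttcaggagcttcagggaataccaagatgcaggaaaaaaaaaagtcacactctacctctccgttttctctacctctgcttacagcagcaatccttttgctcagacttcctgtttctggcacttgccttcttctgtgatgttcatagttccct
Lef1: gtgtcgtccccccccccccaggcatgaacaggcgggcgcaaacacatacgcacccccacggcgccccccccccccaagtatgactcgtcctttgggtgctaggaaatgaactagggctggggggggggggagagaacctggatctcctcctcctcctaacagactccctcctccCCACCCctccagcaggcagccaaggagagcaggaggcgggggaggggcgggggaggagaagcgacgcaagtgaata
The Il7r window held none of the 4 strings of letters, and the Lef1 window held the KLF letters once. Among all 32851 windows of 27025 genes, 28.1% held the KLF letters, 13.8% the TCF and LEF letters, 12% the ETS letters and 3.17% the FOXO letters. RefSeq windows were at hand for 6 of the 9 genes, with Klf2, Bcl11b, Satb1 and Tcf7 beside Il7r and Lef1. These genes have 14 windows, some of which are alternative starts of 1 gene, and 9 of the 14 held the KLF letters, 2 the TCF and LEF letters, 1 the ETS letters and 0 the FOXO letters. Counted by gene, the KLF letters stood in at least 1 window of 5 of the 6 genes, beside 30.6% of all genes. This is not a like comparison, since these genes have more windows each than genes in general. Lef1 has 4 of the 14 windows and Satb1 has 5. No test of these shares was made. A match is a description of the letters only.

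Il7r encodes the alpha chain of the interleukin 7 receptor. Its log2 level was 10.79, 9.44 and 11.06 in intact spleens 1 to 3. On day 1 it was 12.99, 12.63 and 12.01, and on day 7 it was 8.60, 8.78 and 8.97. Every day 1 array was above all 6 intact arrays and every day 7 array below them. Intact spleens 4 to 6 stood at 10.57, 10.74 and 11.28, and day 3 at 9.77, 10.87 and 9.54, with overlap.
On day 1 Il7r differed from intact spleens 1 to 3 by 2.11 ± 0.42 (SE), which did not pass the test (adjusted p = 0.582, limma). Read as plain log2, this is a 4.33-fold higher level. In this comparison 0% of all features passed. On day 7 the difference was -1.65 ± 0.42 (adjusted p = 0.242), and on day 3 it was -0.81 ± 0.42 (adjusted p = 0.625). Between day 7 and day 1 the difference was -3.76 ± 0.42 (adjusted p = 0.00678). Without day 7 replicate 1 the same difference was -3.67 and lost the call (adjusted p = 0.0717). With each other array of these days left out it kept its call.

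Lef1 encodes a high mobility group factor of the T lineage that binds DNA. Its log2 level was 6.88, 6.20 and 7.35 in intact spleens 1 to 3. On day 1 it was 8.48, 7.92 and 7.36, just above the highest of these intact arrays. On day 7 it was 5.44, 5.44 and 5.41, which is a spread of 0.02 (SD, n = 3). The day 7 arrays lay below all 6 intact arrays, of which spleens 4 to 6 stood at 8.28, 7.07 and 7.98. Day 3, at 7.43, 8.59 and 7.49, overlapped its controls.
The difference from intact spleens was 1.11 ± 0.40 on day 1 (adjusted p = 0.617), 0.06 ± 0.40 on day 3 (adjusted p = 0.981) and -1.38 ± 0.40 on day 7 (adjusted p = 0.279, limma). Day 7 differed from day 1 by -2.49 ± 0.40 (adjusted p = 0.0365). This call was lost without day 1 replicate 1 (-2.21, adjusted p = 0.139), day 1 replicate 2 (-2.49, adjusted p = 0.0837), day 7 replicate 1 (-2.49, adjusted p = 0.144) or day 7 replicate 2 (-2.49, adjusted p = 0.0928), and the direction was kept in each.

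Satb1 encodes a chromatin organiser of T cell development. On day 1 its log2 level was 12.21, 12.46 and 10.29. The third of these arrays lay within intact spleens 1 to 3, at 10.15, 9.41 and 10.74, and the other two lay above all intact arrays. On day 7 the level was 8.56, 8.83 and 8.42, below every intact array. Day 3 stood at 10.30, 11.44 and 9.55 beside 11.51, 10.83 and 11.26 in intact spleens 4 to 6. The difference from intact spleens was 1.55 ± 0.54 on day 1 (adjusted p = 0.605), -0.77 ± 0.54 on day 3 (adjusted p = 0.742) and -1.50 ± 0.54 on day 7 (adjusted p = 0.349, limma). Day 7 against day 1 gave -3.05 ± 0.54 and missed the threshold (adjusted p = 0.0556). Without day 1 replicate 3 it was -3.73 and passed (adjusted p = 0.0233).

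Ets1 encodes a transcription factor of resting T, B and NK cells. Its log2 level was 12.50, 11.94 and 12.97 in intact spleens 1 to 3. It was 13.52, 13.16 and 12.16 on day 1, which overlaps those controls. On day 7 it was 10.39, 10.91 and 10.43, more than 1 below the lowest intact array. Intact spleens 4 to 6 stood at 13.89, 12.60 and 13.35, and day 3 at 13.10, 14.41 and 12.03. The day 7 difference of -1.89 ± 0.52 was the farthest below 0 among the 8 genes, and did not pass (adjusted p = 0.255, limma). The differences on days 1 and 3 were 0.48 ± 0.52 (adjusted p = 0.889) and -0.10 ± 0.52 (adjusted p = 0.975). Day 7 against day 1 gave -2.37 ± 0.52 (adjusted p = 0.0802).

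S1pr1 encodes the receptor for sphingosine 1-phosphate that carries lymphocytes out of tissue. It stood at 8.07, 7.62 and 8.16 in intact spleens 1 to 3 on the log2 scale. On day 1 it stood at 9.20, 7.86 and 7.68, where only the first array was above the controls. On day 7 it stood at 6.28, 6.71 and 6.60, below all 6 intact arrays. Intact spleens 4 to 6 held 8.71, 8.17 and 8.84 and day 3 held 8.08, 9.01 and 7.48. Differences from intact spleens were 0.30 ± 0.41 on day 1 (adjusted p = 0.918), -0.38 ± 0.41 on day 3 (adjusted p = 0.846) and -1.42 ± 0.41 on day 7 (adjusted p = 0.270, limma). Day 7 against day 1 gave -1.71 ± 0.41 (adjusted p = 0.0955).

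Ccr7, the receptor for CCL19 and CCL21, had the narrowest range. Its log2 level ran from 9.07 to 9.92 in intact spleens 1 to 3, from 9.45 to 10.01 on day 1 and from 9.04 to 9.23 on day 7. These groups overlapped with intact spleens on every day. The differences were 0.10 ± 0.29 on day 1 (adjusted p = 0.969), -0.37 ± 0.29 on day 3 (adjusted p = 0.773) and -0.43 ± 0.29 on day 7 (adjusted p = 0.649, limma).

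Klf2, the transcription factor that sustains S1pr1 expression in T cells, and Bcl11b, a factor of T lineage commitment, had low signals. Their day 7 means of 4.69 and 3.77 were under the array medians, which ran from 4.74 to 4.89, so small differences at this end are poorly measured. Klf2 ran from 4.51 to 4.80 on day 7, below intact spleens 1 to 3 at 5.23 to 5.76, with a difference of -0.81 ± 0.47 (adjusted p = 0.590, limma). On day 1 Klf2 differed by -0.27 ± 0.47 (adjusted p = 0.936), the only negative day 1 difference among the 8 genes. On day 3 its arrays were 6.87, 7.69 and 5.16, on both sides of intact spleens 4 to 6 at 6.49, 6.28 and 5.91. Bcl11b differed by 0.50 ± 0.46 on day 1 (adjusted p = 0.853), -0.48 ± 0.46 on day 3 (adjusted p = 0.827) and -0.75 ± 0.46 on day 7 (adjusted p = 0.612), and its arrays overlapped the controls each day.

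**Figure D1:**
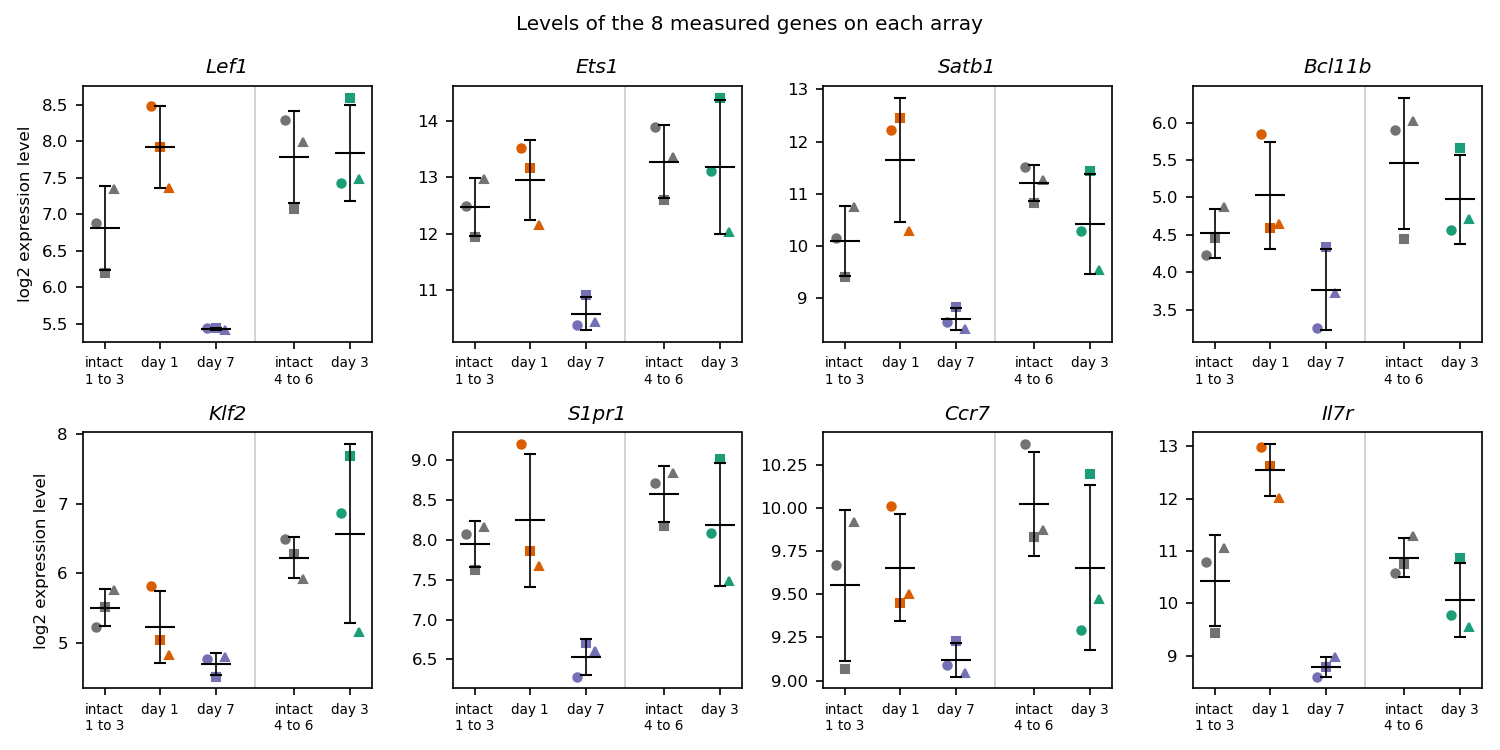
Log2 level (vertical axes, a separate scale for each gene) of the 8 measured genes on each of the 15 arrays, with circles, squares and triangles for the arrays of a group in the order of their numbers, long marks for group means and bars for ± SD (n = 3). Days 1 and 7 stand beside intact spleens 1 to 3, and day 3 beside intact spleens 4 to 6. Il7r on day 1 lies above every intact array, and 6 of the 8 genes on day 7 lie below every intact array.

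On day 7 all 8 genes had a lower mean than intact spleens 1 to 3, with a median difference of -1.40, while the median over all features was -0.001. For 6 of the 8, namely Il7r, Lef1, Satb1, Ets1, S1pr1 and Klf2, every day 7 array was below every one of these controls, as was so for 8.31% of all features. The same 6 genes were below all 6 intact arrays, against 4% of all features. Compared with intact spleens 1 to 3, 5 of the 8 genes were lower at an unadjusted p under 0.05, beside 4.45% of all features. After adjustment 0 genes and 0% of all features passed in this comparison (limma). With each intact array in turn left out, the median of the 8 genes ran from -1.63 to -1.14 on day 7.

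On day 1 the values of the genes were spread from -0.27 for Klf2 to 2.11 for Il7r. The mean was higher for 7 of the 8 and the median difference was 0.49, beside 0.002 over all features. That median was 0.14 without day 1 replicate 1, 0.78 without day 1 replicate 3, and from 0.34 to 0.70 with 1 intact array left out. Against all 6 intact arrays it was 0.05, against intact spleen 3 alone 0.12, and against intact spleens 4 to 6 it was -0.33. At an unadjusted p under 0.05, 3 genes were higher (Il7r, Satb1 and Lef1), against 4.48% of all features. The arrays of Il7r and Lef1 lay above all of intact spleens 1 to 3, as did 7.89% of all features. Against all 6 intact arrays Il7r alone of the 8 stood above, with 3.12% of all features. No gene and 0% of all features passed after adjustment (limma).

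On day 3 the arrays of all 8 genes overlapped intact spleens 4 to 6. The median difference was -0.38, with 2 genes higher and 6 lower in mean, and 0 of the 8 reached an unadjusted p under 0.05, against 9.04% of all features. After adjustment 0 genes passed, and 0.00901% of all features did (limma). The median was -0.23, -0.75 and -0.15 without day 3 replicates 1, 2 and 3 in turn, and -0.23, -0.52 and -0.22 without intact spleens 4, 5 and 6. The day 3 spleens differed among themselves. Replicate 2 held the highest day 3 level of each of the 8 genes, and the mean over the 8 genes was 8.68, 9.73 and 8.18 in replicates 1 to 3. The mean of 12 erythroid genes in the same arrays was 12.00, 9.17 and 13.88, so it was low where the 8 genes were high, and its part in the spread was not tested.

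**Figure D2:**
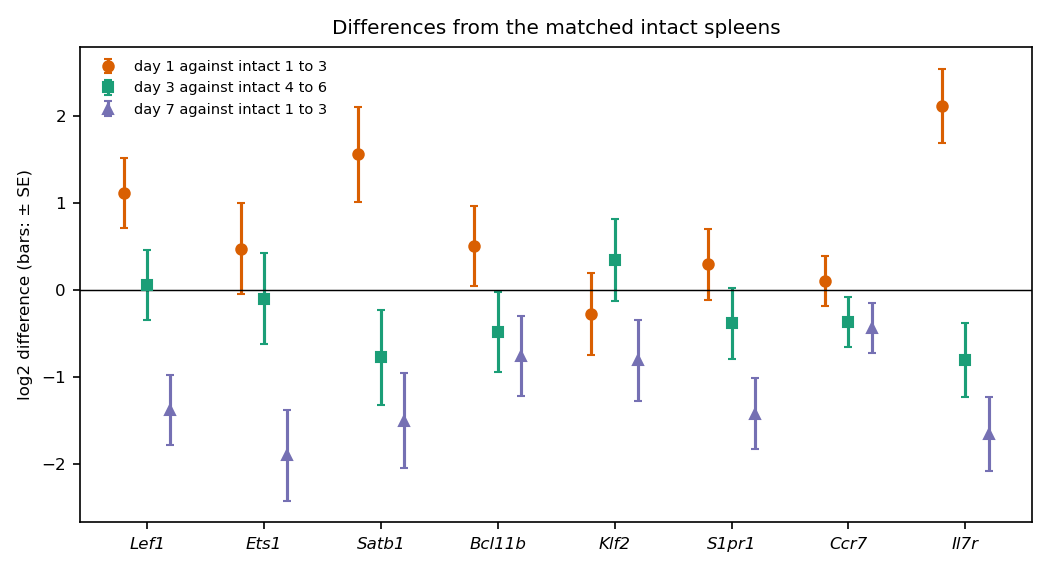
Log2 difference from the matched intact spleens (vertical axis, with bars for ± SE of limma) for each of the 8 genes on days 1, 3 and 7. On day 7 all 8 points lie below 0, from -1.89 for Ets1 to -0.43 for Ccr7, and on day 1 Il7r at 2.11, Satb1 at 1.55 and Lef1 at 1.11 stand highest.

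Day 7 against day 1 is a direct comparison of resected spleens, in which the controls cancel. All 8 genes had every day 7 array below every day 1 array, as did 9.68% of all features. Il7r and Lef1 passed the test, so 2 of the 8 genes were called lower, against 0.045% of all features (10 of 22206, limma) and 0.0585% called in either direction. At an unadjusted p under 0.05, 6 of the 8 were lower, against 7.12% of all features. The differences of Bcl11b, Klf2 and Ccr7 were -1.26 ± 0.46 (adjusted p = 0.267), -0.53 ± 0.47 (adjusted p = 0.715) and -0.54 ± 0.29 (adjusted p = 0.479).
Day 3 can be set against day 1 only through the separate control sets. The day 3 effect of Il7r was lower than its day 1 effect by -2.92 ± 0.60 and that of Satb1 by -2.33 ± 0.77, and neither passed (adjusted p = 0.940 for both, limma). Of all features 0% passed in this comparison, while 5.08% reached an unadjusted p under 0.05. Between the effects of days 7 and 3 the largest difference among the 8 genes was that of Ets1, at -1.80 ± 0.74 (adjusted p = 0.819), and 0% of all features passed while 5.84% reached an unadjusted p under 0.05.

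The control sets themselves differed. All 8 genes had higher means in intact spleens 4 to 6 than in intact spleens 1 to 3, by 0.44 for Il7r to 1.10 for Satb1, and 0 of the 8 passed the test while 0.59% of all features did (limma). For Satb1, Klf2 and S1pr1 the sets did not overlap, as for 8.72% of all features. The size of the differences therefore depends on the controls, and on days 1 and 3 so does the sign of their median. Set against the other control set, the median of the 8 genes was -0.33 on day 1, 0.39 on day 3 and -2.06 on day 7. Against all 6 intact arrays 4 of the 8 genes were called lower on day 7 (limma). They were Lef1 (-1.86, adjusted p = 0.0458), Ets1 (-2.30, adjusted p = 0.0433), S1pr1 (-1.73, adjusted p = 0.0458) and Il7r (-1.87, adjusted p = 0.0429). Each lay just under the threshold of 0.05. In this comparison 207 of 22206 features were called in either direction, and those called lower were not counted apart.

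Core T cell genes, the components of the T cell receptor complex and its close partners, were measured for comparison. Of 17 listed, 15 were measured, and all 15 had lower means on day 7, with a median difference of -0.92. Their mean log2 level was 6.42 on each day 7 array and from 7.04 to 7.78 in intact spleens 1 to 3. Cd3e, a chain of the receptor complex, differed by -1.54 ± 0.53 (adjusted p = 0.334), Cd2, an adhesion receptor, by -1.50 ± 0.44 (adjusted p = 0.280), Cd28, a costimulatory receptor, by -1.39 ± 0.50 (adjusted p = 0.347) and Lat, an adaptor of receptor signalling, by -1.21 ± 0.39 (adjusted p = 0.320, limma). On day 1 the median of the 15 was 0.18, and Cd3e differed by 0.93 ± 0.53 (adjusted p = 0.764). On day 3 the median was -0.41.
Other genes of naive and central memory T cells, 18 measured of 20, had a median difference of -1.18 on day 7, with 17 lower in mean, beside 50.2% of all features, and 9 lower at an unadjusted p under 0.05, beside 4.45%. Ms4a4b, a membrane protein of T cells, differed by -2.17 ± 0.54 (adjusted p = 0.241), Ablim1, an actin-binding protein, by -2.22 ± 0.58 (adjusted p = 0.242), Bcl2, a survival protein, by -1.58 ± 0.43 (adjusted p = 0.255) and Skap1, an adaptor, by -1.33 ± 0.37 (adjusted p = 0.257). Foxo1, the factor that drives Il7r and Klf2 in T cells, differed by 0.95 ± 0.42 on day 1 (adjusted p = 0.690) and by -0.88 ± 0.42 on day 7 (adjusted p = 0.493). The medians on days 1 and 3 were 0.24 and -0.29. In these and all the other lists of genes described here, 0 genes passed the test in any comparison with the matched intact spleens (limma, adjusted p).

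When each array was centred on the mean of these core T cell genes, the values give the difference of a gene relative to them. After this centring the median of all features between days 7 and 1 was 1.19, from 0.01 as deposited. The centring turned the calls over all features to 12036 higher and 37 lower, from 3 higher and 10 lower. On this scale Il7r was lower on day 7 than on day 1 by -2.58 ± 0.47 (adjusted p = 0.00283), Satb1 by -1.87 ± 0.51 (adjusted p = 0.0144), Lef1 by -1.31 ± 0.44 (adjusted p = 0.0262) and Ets1 by -1.19 ± 0.48 (adjusted p = 0.0401, limma). In mean, these 4 genes differed between the days by more than the core T cell genes did on average, of which single genes reached -2.46 as deposited. With so many features called, the adjustment lets larger unadjusted p pass. The adjusted p on this scale therefore cannot be set beside those as deposited. S1pr1 and Bcl11b had values of -0.53 ± 0.44 (adjusted p = 0.266) and -0.08 ± 0.45 (adjusted p = 0.876). Klf2 and Ccr7 changed sign, to 0.65 ± 0.48 (adjusted p = 0.213) and 0.65 ± 0.44 (adjusted p = 0.177).
Against intact spleens 1 to 3 on the same scale, none of the 8 genes passed. On day 1 Il7r differed by 1.89 ± 0.47 (adjusted p = 0.156). On day 7 the values ran from -0.93 for Ets1 to 0.53 for Ccr7, with Bcl11b and Klf2 also above 0, at 0.21 and 0.15, and the median of all features was 0.96.

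**Figure D3:**
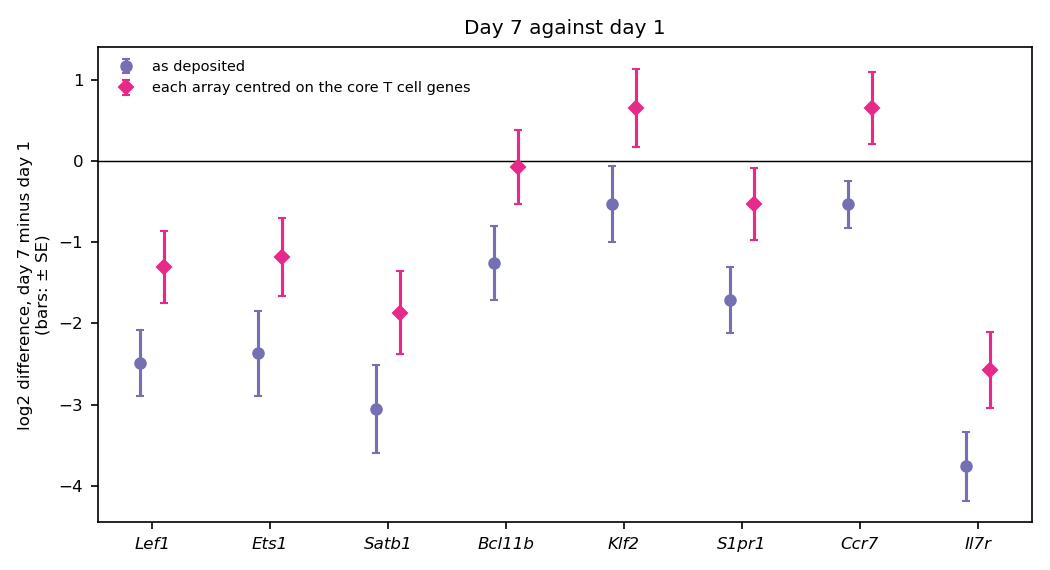
Log2 difference of day 7 minus day 1 (vertical axis, with bars for ± SE of limma) for each of the 8 genes, as deposited (circles) and after each array was centred on the mean of the 15 core T cell genes (diamonds). Il7r lies lowest on both scales, at -3.76 and -2.58, and Klf2 and Ccr7 lie above 0 after centring.

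Interleukin 7 signalling was described by 12 measured genes of 14 listed, with Il2rg and Jak3 not analysed here. Il7, the ligand, differed by 1.08 ± 0.49 on day 1 (adjusted p = 0.697), 0.71 ± 0.49 on day 3 (adjusted p = 0.739) and -0.60 ± 0.49 on day 7 (adjusted p = 0.738, limma). Tslp, a cytokine whose receptor also uses the Il7r chain, differed by 0.68 ± 0.31 on day 3 (adjusted p = 0.534). Jak1, the kinase bound to the receptor, differed by 0.61 ± 0.38 on day 1 (adjusted p = 0.785) and -0.89 ± 0.38 on day 7 (adjusted p = 0.435), and the signal transducers Stat5a and Stat5b by 0.31 and 0.38 on day 1. Pim1, a kinase induced by cytokines, was higher in mean on both days, by 1.19 ± 0.44 on day 1 (adjusted p = 0.623) and 1.47 ± 0.44 on day 7 (adjusted p = 0.286). The list's medians were 0.34, 0.15 and 0.01 on days 1, 3 and 7.

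The trafficking list had 33 measured genes, among them the ligands of Ccr7. Ccl21a, a chemokine of stromal cells of the T cell zone, differed by 1.64 ± 0.70 on day 1 (adjusted p = 0.678) and -1.91 ± 0.70 on day 7 (adjusted p = 0.355, limma). Ccl21b and Ccl21c, near-identical copies of Ccl21a with the same values as each other, both differed by 1.65 ± 0.72 on day 1 and -2.11 ± 0.72 on day 7 (adjusted p = 0.680 and 0.334), and the 3 copies cannot be read as separate measurements. Ccl19, the other ligand, differed by -1.45 ± 0.57 on day 1 (adjusted p = 0.649) and -1.18 ± 0.57 on day 7 (adjusted p = 0.493), with every day 1 and day 7 array below intact spleens 1 to 3. Cd69, which binds S1PR1 and takes it from the cell surface, differed by 1.24 ± 0.44 on day 1 (adjusted p = 0.611) with all arrays above the controls, and by -0.40 ± 0.44 on day 7 (adjusted p = 0.828).
The kinases that make sphingosine 1-phosphate, Sphk1 and Sphk2, and its exporter Spns2 differed on day 7 by 0.59, -0.49 and -0.24, with adjusted p from 0.571 to 0.791. Rassf5, a regulator of integrin adhesion, differed by 1.09 ± 0.39 on day 1 (adjusted p = 0.609), and Dock2, a regulator of lymphocyte motility, by -1.44 ± 0.49 on day 3 (adjusted p = 0.359) and -1.30 ± 0.49 on day 7 (adjusted p = 0.377). The list's medians were 0.18, -0.11 and -0.21.

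Other transcription factors of T cells and of the ETS family, 17 measured, had medians of 0.35, 0.04 and -0.30 on days 1, 3 and 7. Tox differed by 0.92 ± 0.32 (adjusted p = 0.605) and Ets2 by 1.16 ± 0.49 (adjusted p = 0.677) on day 1. Nfatc2, a calcium-regulated factor, differed by -0.57 ± 0.22 on day 7 (adjusted p = 0.382). Myb, a factor of progenitor cells, differed by 1.21 ± 0.41 on day 7 (adjusted p = 0.334), opposite to the 8 genes. Effector, activated and regulatory T cell genes, 15 measured, had medians of 0.07, -0.17 and -0.30, with Ctla4, an inhibitory receptor, at 2.14 ± 0.76 on day 1 (adjusted p = 0.609). On day 7 Cxcr6, a chemokine receptor, stood at -1.06 ± 0.34 (adjusted p = 0.320), and Icos, a costimulatory receptor, at -1.05 ± 0.41 on day 3 (adjusted p = 0.433).

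Markers of other cells were measured beside the 8 genes. B cell genes, 14 measured, all had lower means on day 7, with a median of -1.04, and Blk, Ebf1, Cd79a and Pax5 differed by -1.31, -1.63, -1.58 and -1.60 (adjusted p from 0.222 to 0.359, limma). The mean level of the B cell list ran from 9.91 to 10.78 in intact spleens 1 to 3 and from 9.15 to 9.31 on day 7. Neutrophil genes, 12 measured, all had higher means on day 7, with a median of 2.36, and the granule genes Elane, Prtn3 and Ctsg and the receptor gene Csf3r differed by 2.92, 3.13, 3.30 and 2.10 (adjusted p from 0.226 to 0.312). The mean level of the neutrophil list ran from 12.40 to 14.45 in intact spleens 1 to 3 and from 14.64 to 16.57 on day 7. The part of either in the day 7 values of the 8 genes was not tested.
NK cell genes, 10 measured, had medians of -0.07, -0.06 and -0.16, and 7 of the 10 had lower means on day 7. Klrk1, an activating receptor, differed by -0.91 ± 0.30 (adjusted p = 0.320) and Nkg7, a granule protein, by 1.65 ± 0.38 (adjusted p = 0.219) on day 7. Gzma, a granule protease, differed by 1.56 ± 0.36 on day 3 (adjusted p = 0.152, limma), with every array above intact spleens 4 to 6. Early B lineage genes, 9 measured, had medians of -0.05, -0.04 and 0.07. Endothelial genes, 12 measured, all had higher means on day 1, with a median of 0.36, and all had lower means on day 7, with a median of -0.33. Erythroid genes had medians of -0.98, -0.93 and -0.37, and red pulp macrophage genes, 11 measured, of 1.04, 0.87 and 0.02. On day 1 the mean level of the macrophage list was 10.82 to 11.95, above intact spleens 1 to 3 at 10.17 to 10.72, and its part in the day 1 values of Il7r and Lef1 was not tested.
Pancreatic acinar genes, 19 measured, stood at a mean log2 level of 14.45 and 12.23 in intact spleens 1 and 2 but 4.69 in intact spleen 3, and at 3.54 to 7.73 on the other arrays. The pancreas adjoins the spleen. Among intact spleens 1 to 3, spleen 3 held the highest level of each of the 8 genes, whose mean was 8.44, 7.96 and 8.85. The part of the acinar signal in this was not tested. With intact spleen 3 as the only control, all 8 genes were still lower in mean on day 7, from -0.80 for Ccr7 to -2.40 for Ets1. On day 1 the median of the 8 genes was then 0.12, from -0.53 for Klf2 to 1.48 for Il7r. Ets1 and Ccr7 changed sign on day 1, to -0.027 and -0.27. These are values against 1 array, with no test read from them.

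**Figure D4:**
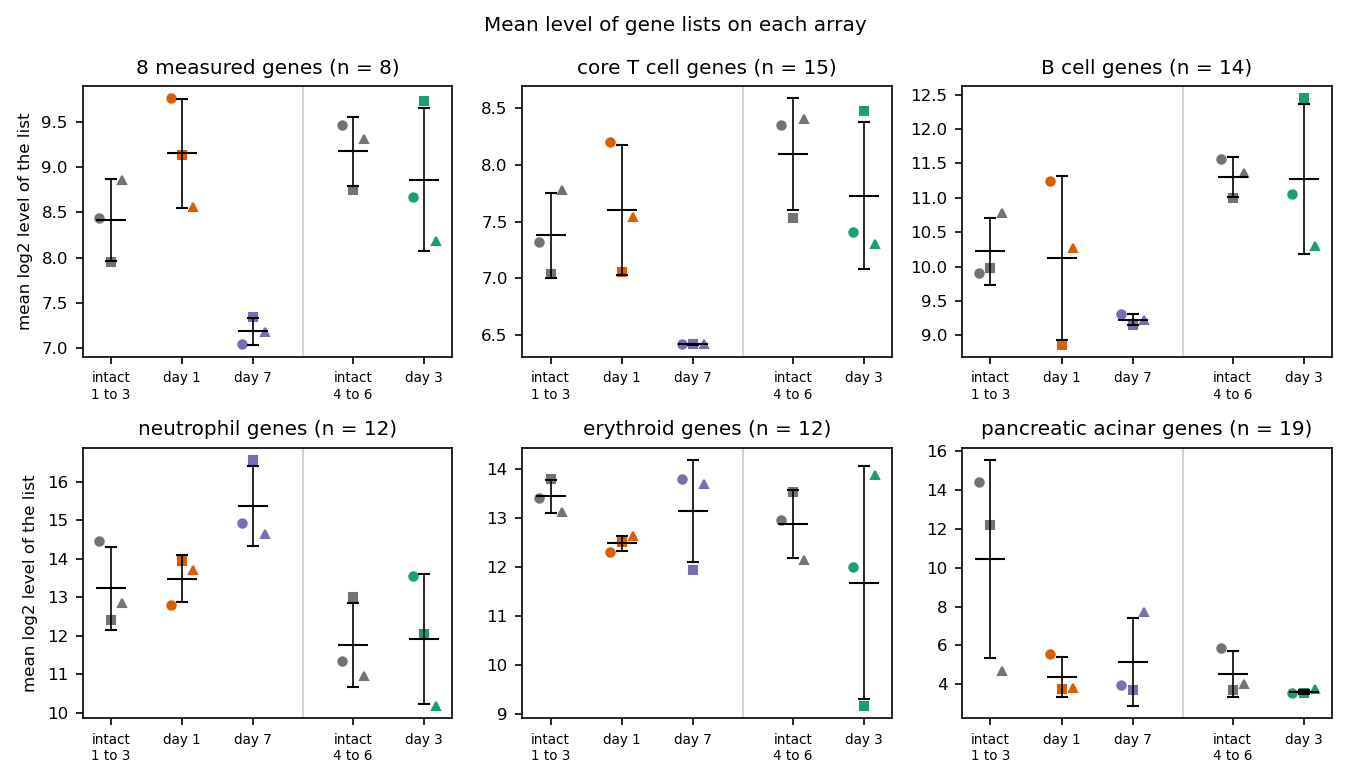
Mean log2 level (vertical axes, a separate scale for each list) of the 8 measured genes and of 5 lists of marker genes on each array, with circles, squares and triangles for the arrays of a group in the order of their numbers, long marks for group means and bars for ± SD (n = 3). The 8 genes, the core T cell genes and the B cell genes are low on day 7 while the neutrophil genes are high, and the acinar genes are high in intact spleens 1 and 2.

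The 8 genes varied together across the arrays. Pearson's r over the 15 arrays was above 0 for all 28 pairs, from 0.216 for Klf2 with Il7r to 0.953 for Ets1 with S1pr1, with a median of 0.806. Around the 5 group means it ran from 0.395 to 0.906, with a median of 0.745. The arrays share their normalization and tissue make-up, and these values are a description. Among all other genes those most like the mean of the 8 were Dpp4 (r = 0.961), a surface peptidase of T cells, Foxp1 (0.949), a factor of T cell quiescence, Stat4 (0.944), Ablim1 (0.944) and Mef2d (0.943), followed by Prkch, Rel, Nfatc1, Ppp3cc and Cd53 at 0.925 to 0.935.
Each gene also had its own nearest patterns over the 15 arrays. Il7r was most like Trib2 (0.937), Klhl24 (0.911) and Btg1 (0.897), and Satb1 shared Btg1 (0.959) and Klhl24 (0.927) with it, beside Foxp1 (0.931). Lef1 was most like Mef2d (0.951), Stat4 (0.951) and Phf21a (0.920). Ets1 was most like Rel (0.956), Fam102a (0.950) and Ppp3cc (0.942), and S1pr1 like Ms4a4b (0.944), Fam102a (0.944) and Dgka (0.938). Ccr7 was most like Ms4a6b (0.909), St8sia4 (0.895) and Coq10a (0.892). Klf2 was most like Nod1 (0.921), 4930523C07Rik (0.920) and the B cell factor gene Pax5 (0.914), and Bcl11b like Kbtbd11 (0.914), Adamts10 (0.913) and Retreg1 (0.911).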

How the data were processed

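The authors hybridised spleen RNA, isolated with RNeasy columns, to Clariom S arrays and made the deposited log2 values with RMA in the Transcriptome Analysis Console. RMA corrects background, normalizes quantiles across arrays and summarises the probes of a feature, so these steps could not be varied. Values reached 19.9. The quantile step comes before the probes are summarised, and the array medians of the deposited values ran from 4.74 to 4.89. The arrays therefore do not share exactly 1 distribution. With such a normalization a value is relative to the other RNA of the array. The genome build of the files is not given in the sources used here. The table lists 28846 features. Without its 6640 controls, 22206 remained, and none was dropped for a low level. Symbols came from the platform annotation, and where a gene had several features the one with the highest mean was used. The values of the 8 genes came from 1 feature each.

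Differences were tested with limma 3.58.1 (lmFit and eBayes, R 4.3.3) in 1 fit of all 15 arrays over 5 groups, with Benjamini-Hochberg adjustment over all features of a comparison, two-sided. Standard errors are those of limma. The replicates are biological per the labels, their number limits the precision, and an exact permutation test of 3 against 3 arrays cannot go below 0.1. The genes, the 14 lists, the control sets and the tests were chosen with earlier results of these data known, so p adjusted over a list alone is not given. Genes to name were picked as up to 4 of each list with the smallest p over the 3 comparisons with intact spleens. Direct ligands, partners and factors of the genes' pathways were added. Not all of these picks were named, but mostly those bearing on the 8 genes. For the endothelial, erythroid, red pulp macrophage and acinar lists no single gene was named. The steps were tested on simulated data. Alternatives were other control sets, a replicate block, scaling, filters, priors, an acinar covariate, thresholds and leaving out each array. One fit with day 3 replicate 1 alone was chosen after seeing the data.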

Additional observations from a re-analysis of the deposited data

Results flagged for a closer look

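Il7r and Lef1 stood out because their effects differed between days by a test of the difference itself. Both days are set against the same intact spleens, which cancel. For Il7r, day 7 minus day 1 was -3.76 ± 0.42 (SE) on the log2 scale (adjusted p = 0.00678, limma), with all 3 day 7 arrays below all 3 day 1 arrays. For Lef1 it was -2.49 ± 0.40 (adjusted p = 0.0365), also with no overlap. No array of the 8 genes stood out within the 6 intact spleens, and groups of 3 arrays were not examined for single arrays that stand apart.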

How the results depend on the processing

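The arrays carry no depth, and signal near or under the array median limits Bcl11b and Klf2. Over the alternatives, 780 values of single genes kept their direction and side of the threshold, 15 came to pass it, 8 no longer passed it and 45 changed sign, and 293 counts stayed within 1.5 times while 61 did not. The cause of the changes was not tested. For Il7r, day 7 minus day 1 ran from -4.03 to -3.54 with each array left out, and the call was lost only without day 7 replicate 1. Lef1 ran from -2.77 to -2.21 and also lost its call with only the compared groups in the fit (adjusted p = 0.0739) and with the acinar covariate (adjusted p = 0.0784, limma). Satb1 passed with a trended and robust prior (adjusted p = 0.0243) and with arrays centred on their median (adjusted p = 0.0430).

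Replicate numbers did not pair the samples: the deviations of 9 same-numbered pairs correlated at -0.208 to 0.212, and 0 of 6 day arrays correlated best with their own number. With the replicate number as a block, day 7 minus day 1 had 22 features called, from 13, and 1 of the 8 genes called lower, since Lef1 had an adjusted p of 0.0525. Day 3 and intact spleens 4 to 6 share no number.

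Against all 6 intact arrays, 6 features were called on day 3 and 207 on day 7, with 4 of the 8 genes lower, and S1pr1 (-0.017) and Ccr7 (-0.13) on day 1 and Ets1 (0.31) on day 3 changed sign. Against the other set of intact spleens, 328, 207 and 1298 features were called on days 1, 3 and 7, with 6 of the 8 genes lower on day 7. With that set Ets1 (-0.33), Bcl11b (-0.43), S1pr1 (-0.33) and Ccr7 (-0.37) changed sign on day 1, and Ets1 (0.71), Satb1 (0.33), Bcl11b (0.45), S1pr1 (0.24) and Ccr7 (0.10) on day 3. With intact spleen 3 alone, 1 feature was called on day 1 and 1 on day 7, and Ets1 (-0.027) and Ccr7 (-0.27) changed sign on day 1.

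With only the compared groups in the fit, 0 features were called on day 3 and 2 for day 7 minus day 1, 1 of them among the 8 genes, and the acinar covariate gave 2 and 1 and turned Ccr7 on day 1 (-0.036). For day 7 minus day 1, 59 features were called with the trended prior and 54 with median centring. Further quantile normalization turned Ccr7 on day 1 (-0.00037), Lef1 on day 3 (-0.070) and Ccr7 between days 7 and 3 (0.066). Day 3 replicate 1 alone, chosen after seeing the data, gave 22 features and turned Lef1 (-0.35).

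Centring on the core T cell genes gave 28, 4 and 1839 features on days 1, 3 and 7, and 1 between days 7 and 3. For day 7 minus day 1 it gave 12073, of which 12036 were higher and 37 lower, with 4 of the 8 genes among the lower. It turned Ccr7 (-0.12) on day 1, Ets1 (0.27) on day 3, and Bcl11b (0.21), Klf2 (0.15) and Ccr7 (0.53) on day 7. It also turned Klf2 (0.65) and Ccr7 (0.65) for day 7 minus day 1, Ets1 (0.020) and Ccr7 (0.12) between days 3 and 1, and Bcl11b (0.32) and Ccr7 (0.53) between days 7 and 3.

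Calling by a 2-fold difference and an unadjusted p under 0.05 gave 460, 451 and 771 features on days 1, 3 and 7, with 3 of the 8 genes higher on day 1 and 5 lower on day 7. It gave 1197 for day 7 minus day 1 with 6 of the 8 lower, 610 between days 3 and 1 with 2, and 771 between days 7 and 3 with 2. An adjusted p under 0.01 left 0 features on day 3 and 1 for day 7 minus day 1, Il7r.

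With each array left out in turn, features called ran from 0 to 36 on day 1, 0 to 70 on day 3, 0 to 111 on day 7, 0 to 54 for day 7 minus day 1 with 0 to 3 of the 8 genes lower, 0 to 9 between days 3 and 1 and 0 to 16 between days 7 and 3. Signs turned within these ranges for Ccr7 (-0.14 to 0.29) and S1pr1 (-0.18 to 0.58) on day 1 and for Ets1 (-0.71 to 0.48), Lef1 (-0.32 to 0.31) and Klf2 (-0.21 to 1.05) on day 3. They also turned for Ets1 between days 3 and 1 (-1.19 to 0.0035) and for Ccr7 (-0.30 to 0.21) and Bcl11b (-0.56 to 0.23) between days 7 and 3.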
